A study of Mus musculus with 8 samples.

Results

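The transcripts of 7 genes were followed in mouse islets, the hormone-secreting cell clusters of the pancreas. They encode the receptors for GIP (Gipr), GLP-1 (Glp1r), glucagon (Gcgr), PACAP (Adcyap1r1) and VIP together with PACAP (Vipr1 and Vipr2), and the peptidase DPP4 (Dpp4). They were taken by gene symbol from a table of 22632 genes, in which all 7 were listed. Total RNA from islets of C57BL/6 mice was sequenced in 8 libraries, 2 in each of 4 groups. The groups were Tcf7 -/- (KO) mice aged 20 weeks on a diet with 45% fat, Tcf7 +/+ (WT) mice aged 20 weeks on the same diet, Tcf7 -/- mice aged 8 weeks on a diet with 10% fat, and Tcf7 +/+ mice aged 8 weeks on that diet. Another label field calls the diet other than high fat regular chow. Age and diet changed together, so their effects cannot be told apart, and WT mice were littermates of the KO mice. Tcf7 encodes TCF-1, a transcription factor of the Wnt pathway, and the labels do not say which stretch of it was deleted or whether each library came from a separate animal.

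GIP and GLP-1 are the incretins, gut hormones released on feeding that raise glucose-dependent insulin secretion. Their receptors, like those for glucagon, PACAP and VIP, are class B G protein-coupled receptors that couple to the stimulatory G protein and raise cyclic AMP in the beta cell. DPP4 is no receptor: it removes the N-terminal dipeptide from both incretins and thereby ends their action. TCF-1 and its relatives bind DNA at a short core motif, and variants near the related gene TCF7L2 are linked to type 2 diabetes in people.

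The stretches of DNA just before the transcription starts of these genes are given first, since the KO mice were labelled as lacking a factor that binds DNA. RefSeq promoters on the build GRCm38.p6 were matched for 6 of the 7 genes, all but Gipr. The 250 bases before the start are printed for the 4 genes, of the 6 with enough reads to be tested below, whose groups of libraries separated in RPM in at least 1 comparison, 5′ to 3′ on the gene's strand, with GC boxes (GGGCGG on either strand) and CCAAT boxes (CCAAT on either strand) in capitals.
Glp1r, chr17:30901617-30901866, plus strand: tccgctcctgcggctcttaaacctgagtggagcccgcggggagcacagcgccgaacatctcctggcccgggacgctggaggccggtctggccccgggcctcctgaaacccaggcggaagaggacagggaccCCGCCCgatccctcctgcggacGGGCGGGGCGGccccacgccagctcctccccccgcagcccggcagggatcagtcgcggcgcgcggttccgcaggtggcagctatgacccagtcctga
Vipr1, chr9:121642466-121642715, plus strand: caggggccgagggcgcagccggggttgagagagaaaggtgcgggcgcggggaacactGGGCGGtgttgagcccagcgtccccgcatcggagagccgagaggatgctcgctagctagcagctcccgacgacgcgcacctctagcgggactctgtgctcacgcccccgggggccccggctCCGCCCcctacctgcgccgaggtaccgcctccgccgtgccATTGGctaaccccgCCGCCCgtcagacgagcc
Vipr2, chr12:116077476-116077725, plus strand: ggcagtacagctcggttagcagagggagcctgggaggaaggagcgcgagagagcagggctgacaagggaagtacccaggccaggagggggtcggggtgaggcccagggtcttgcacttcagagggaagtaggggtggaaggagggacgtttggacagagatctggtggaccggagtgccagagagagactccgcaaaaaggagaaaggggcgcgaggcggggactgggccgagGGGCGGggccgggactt
Dpp4, chr2:62412232-62412481, minus strand: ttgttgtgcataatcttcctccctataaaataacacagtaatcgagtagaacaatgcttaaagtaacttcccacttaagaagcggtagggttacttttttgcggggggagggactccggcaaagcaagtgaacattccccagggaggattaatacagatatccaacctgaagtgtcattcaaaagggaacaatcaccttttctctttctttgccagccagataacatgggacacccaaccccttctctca
The 5 receptor promoters were rich in G and C, at 73.2% for Glp1r, 72.8% for Vipr1, 70.4% for Gcgr, 65.6% for Adcyap1r1 and 65.2% for Vipr2, against a median of 52.4% over 32851 mouse promoters. That of Dpp4 was at 43.6%, below the median. A GC box, the site of Sp-family factors, was found in 5 of the 6 promoters, all but that of Dpp4, and in 32.7% of all promoters. In Glp1r 2 of the 3 GC boxes share a base, so they appear as one run of capitals. A CCAAT box was found in Vipr1 and Adcyap1r1 and in 33.8% of all promoters. The core of the TCF/LEF motif (CTTTG followed by A or T and then again by A or T, on either strand) was in 0 of the 6 and in 14.8% of all promoters. The core of the cyclic AMP response element (TGACGTC) was in 0 of the 6 and in 2.78% of all. No match means only that these letters are not in these 250 bases.

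Values were deposited in RPM, reads scaled to a fixed total of all reads of a library, and library totals were 58.7 to 191 M reads. Reads in listed genes made up 55.7% to 61.2% of the total at 20 weeks and 41.6% to 51.0% at 8 weeks. Beta cell markers were high in every library, with 10 of them summing to 37850 to 57690 RPM. Acinar markers from the surrounding exocrine tissue varied, and 28 of them summed to 3807 to 37240 RPM. Tcf7 was higher, not lower, in the libraries labelled KO, at 4.56 and 2.56 RPM against 1.58 and 0.991 RPM in WT at 20 weeks, and at 0.512 and 0.519 RPM against 0.277 and 0.381 RPM in WT at 8 weeks. Because the deleted stretch is not stated, reads summed over Tcf7 cannot check the genotype, so it rests on the labels below, and libraries are called KO-labelled.

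Levels of different genes were compared per kilobase of exon, as RPM per kb, with exon lengths from GENCODE M21. Glp1r was the most abundant of the 7 at a mean of 24.8 RPM per kb over 8 libraries and a range of 19.1 to 31.3. Gipr followed at 10.4, and its highest library (13.6) stayed below the lowest of Glp1r. Dpp4 averaged 7.56, Vipr1 6.43 and Gcgr 4.76 RPM per kb, and the ranges of these neighbours overlapped. Vipr2 was far lower at 0.716 RPM per kb, and Adcyap1r1 was lowest at 0.0971 RPM per kb, with a range of 0.0335 to 0.238. Of the 2 receptors that bind VIP and PACAP alike, Vipr1 was therefore the more abundant in every library, with a minimum of 4.34 RPM per kb against a maximum of 1.03 for Vipr2.

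**Figure D1:**
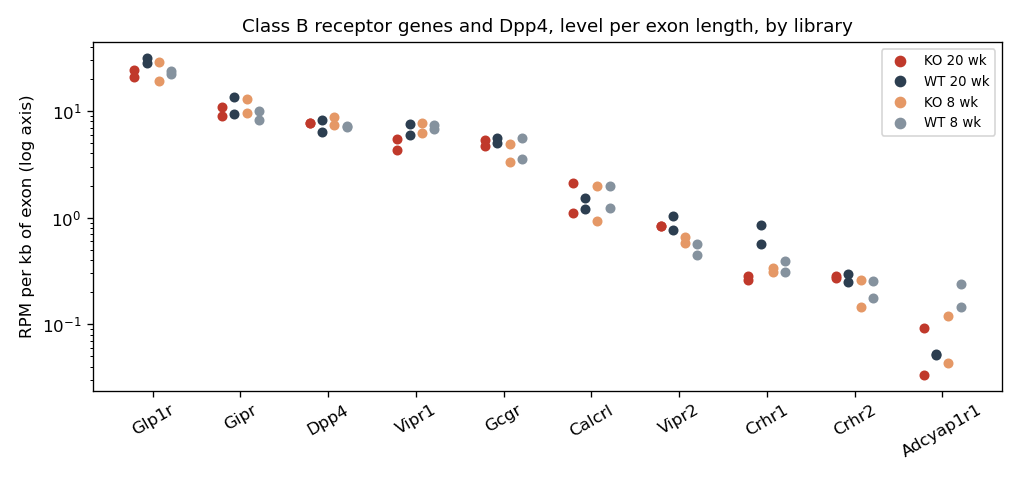
Level per exon length (RPM per kb, log axis) of the 7 genes and of 3 related class B receptor genes (Calcrl, Crhr1 and Crhr2, chosen after their values were seen) in each of the 8 libraries, coloured by group and ordered by mean. Glp1r lies at 19.1 to 31.3 RPM per kb in all libraries, while Adcyap1r1 lies between 0.0335 and 0.238.

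The reads behind these levels were many for all but 1 gene. They ranged from 8354 to 30726 per library for Glp1r, from 831 to 2501 for Gcgr and from 221 to 781 for Vipr2, but from 13 to 176 for Adcyap1r1. Tests were run on the 13347 genes that reached 1 RPM in 2 or more libraries, which kept 6 of the 7 genes. Adcyap1r1 reached 1 RPM in 1 library only and was not tested with the others. All 7 lie on different chromosomes. The exons of Dpp4 share 232 bases with those of Gm13561, an antisense gene. Whether counting used strand is not stated, so reads of Dpp4 and Gm13561 cannot be told apart in that stretch. Glp1r, Gcgr and Vipr2 overlap antisense genes with 0 shared exonic bases.

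The first comparison set KO-labelled islets against WT islets at 20 weeks on high fat. Glp1r and Vipr1 were the only members, of the 6 tested, with both KO-labelled libraries below both WT libraries, yet no member passed the test. Glp1r stood at 142 and 120 RPM in KO-labelled islets, against 182 and 163 RPM in WT islets. Vipr1 stood at 25.1 and 31.5 RPM in KO-labelled islets, against 43.7 and 34.9 RPM in WT islets. Such a separation downwards was seen in 21.2% of all genes tested, and 2 of 6 members is little above that share. Separation upwards was seen in 0 of the 6 tested members and in 12.3% of all genes.

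Fold changes are KO over WT on log2(RPM + 1), with standard errors from limma and p-values adjusted by Benjamini-Hochberg over all genes tested, at a threshold of 0.05. Glp1r had a log2 fold change of -0.39 ± 0.26 (95% interval -0.95 to 0.16) and Vipr1 of -0.46 ± 0.23 (-0.93 to 0.015), both with a limma adjusted p of 1. The unadjusted p of Vipr1 was 0.0568 by limma, and 0.0083 by edgeR on recovered reads with a minimum of 0.1 RPM, where its adjusted p was 0.41. The direction of both was the same when libraries were scaled by the median of ratios (-0.36 for Glp1r and -0.43 for Vipr1) or by the reads in listed genes (-0.31 and -0.38). Scaled by the median of ratios, Vipr1 was at 24.5 and 28.1 in KO-labelled islets against 37.1 and 34.2 in WT islets, so the groups remained apart. The share of all genes that separated on that scale was not counted.

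The levels of acinar markers were compared between the same groups. At 20 weeks the 28 summed to 11450 and 13380 RPM in KO-labelled islets, against 12770 and 37240 RPM in WT islets, and 0 of 28 fold changes were above 0 (list median -0.82, 0 called). At 8 weeks they summed to 30870 and 15800 RPM in KO-labelled islets, against 3807 and 10740 RPM in WT islets, and 28 of 28 were above 0 (list median 1.81, 1 called). For the interaction the list median was -2.60. With the acinar marker mean as a covariate, 0 of 6 members were called in any genotype contrast.

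The other 4 tested members overlapped between genotypes at 20 weeks. Gipr was at 37.6 and 31.2 RPM in KO-labelled islets, against 47.2 and 33.0 RPM in WT islets, and its log2 fold change was -0.20 ± 0.24. Gcgr was at 14.1 and 12.2 RPM in KO-labelled islets, against 14.8 and 13.3 RPM in WT islets. The intervals of these 2 hormone receptors ran from -0.70 to 0.31 and from -0.59 to 0.41. Vipr2 was at 3.76 and 3.70 RPM in KO-labelled islets, against 4.62 and 3.40 RPM in WT islets. Dpp4 was at 49.2 and 48.7 RPM in KO-labelled islets, against 52.5 and 39.9 RPM in WT islets, and here only WT libraries varied among themselves. For these 4 genes the direction at 20 weeks turned when 1 library was left out: without WT replicate 1 for Gipr (0.055) and Vipr2 (0.10), without WT replicate 2 for Dpp4 (-0.099) and without KO replicate 2 for Gcgr (0.012). Among all genes tested by limma at 20 weeks, 0.03% were called higher and 0.015% lower (582 at an unadjusted p under 0.05), and edgeR called 0 genes (1414 at an unadjusted p under 0.05). The median of the 6 members was -0.14, against -0.036 over all genes.

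**Figure D2:**
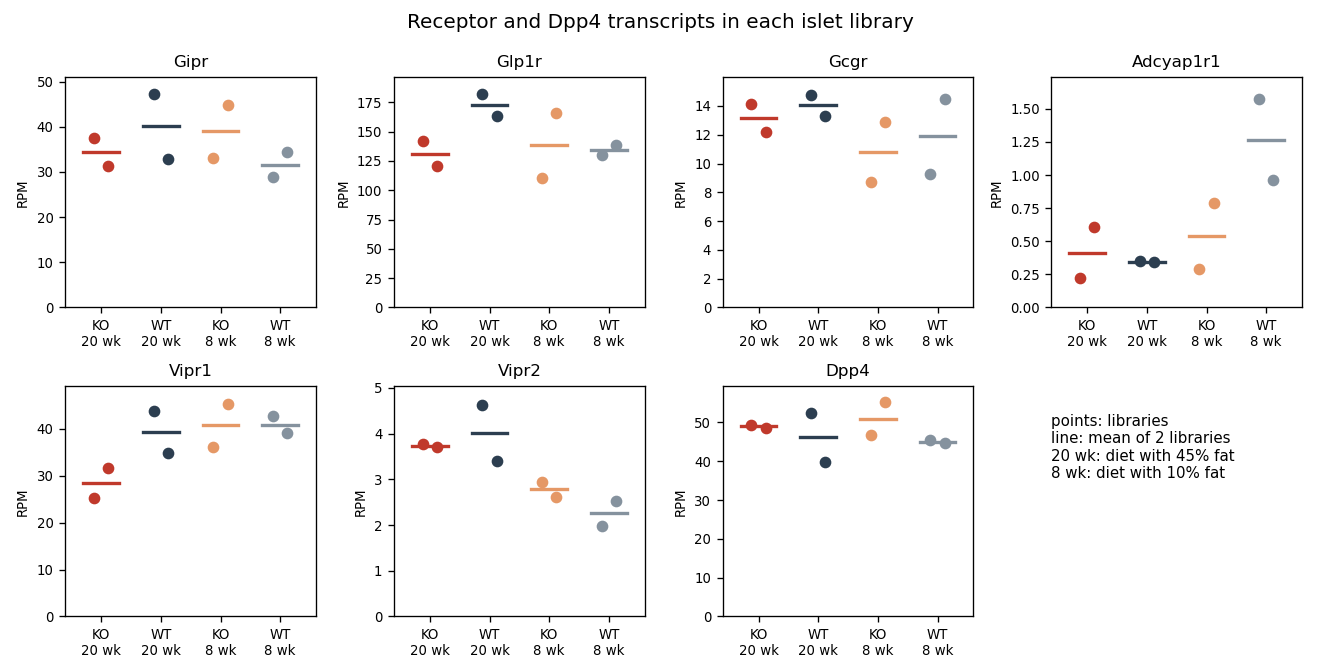
RPM of each of the 7 genes in every library (points) with the mean of 2 libraries (line), by group, each panel on its own axis from 0. At 20 weeks both KO-labelled points lie below both WT points for Glp1r and Vipr1, and all 20-week points lie above all 8-week points for Vipr2.

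At 8 weeks on low fat, KO-labelled islets were compared with WT islets in the same way, and again 0 of 6 members passed. Vipr2 and Dpp4 were the members whose KO-labelled libraries both lay above both WT libraries, 2 of 6 against 7.42% of all genes. Vipr2 was at 2.95 and 2.61 RPM in KO-labelled islets, against 1.98 and 2.53 RPM in WT islets. Dpp4 was at 46.7 and 55.2 RPM in KO-labelled islets, against 45.5 and 44.6 RPM in WT islets. In both genes the nearest libraries of the 2 genotypes differed by less than the 2 KO-labelled replicates did. The log2 fold changes were 0.22 ± 0.20 for Vipr2 and 0.17 ± 0.22 for Dpp4 (limma adjusted p = 1 for each). Scaled by the median of ratios, neither gene separated: Vipr2 was at 3.76 and 2.40 in KO-labelled islets against 2.24 and 2.57 in WT islets, and Dpp4 at 59.6 and 50.8 in KO-labelled islets against 51.3 and 45.4 in WT islets. Separation downwards was seen in 0 of the 6 tested members and in 5.72% of all genes.

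Gipr had the highest fold change of the 6 at 8 weeks, at 0.28 ± 0.24 (95% interval -0.22 to 0.79; limma adjusted p = 1). It stood at 33.1 and 44.8 RPM in KO-labelled islets, against 28.8 and 34.5 RPM in WT islets, and the groups overlapped. Scaled by the median of ratios they did not, with 42.3 and 41.2 in KO-labelled islets against 32.5 and 35.1 in WT islets, and the fold change was 0.30 (limma adjusted p = 0.98). The share of all genes that separated on that scale was not counted, so this separation has no background to be set against. Glp1r was at 111 and 166 RPM in KO-labelled islets, against 130 and 139 RPM in WT islets, so that the KO-labelled libraries lay on both sides of WT. Its log2 fold change was 0.016 ± 0.26 in RPM, and it turned to -0.046 when scaled by the reads in listed genes. Vipr1 was at 36.2 and 45.3 RPM in KO-labelled islets, against 42.7 and 39.0 RPM in WT islets. Its log2 fold change was -0.012 ± 0.23 in RPM, and it turned to 0.0027 under median-of-ratios scaling. Gcgr was at 8.71 and 12.9 RPM in KO-labelled islets, against 9.30 and 14.5 RPM in WT islets, with a log2 fold change of -0.12 ± 0.24.

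The lower of the KO-labelled libraries at 8 weeks was replicate 1 for Gipr, Glp1r, Gcgr, Vipr1 and Dpp4 alike. The median of ratios of that library over all genes was 0.783, against 1.09 for replicate 2. Among all genes tested by limma at 8 weeks, 0.015% were called higher and 0.195% lower (464 at an unadjusted p under 0.05). The median of the 6 members was 0.093, against -0.014 over all genes.

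**Figure D3:**
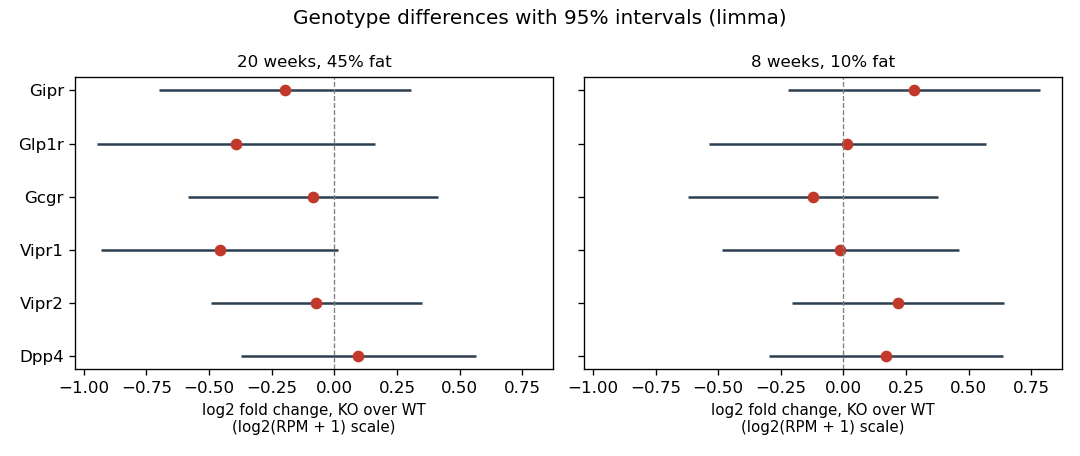
Log2 fold change, KO-labelled over WT on log2(RPM + 1), with its 95% interval from limma for the 6 tested genes, at 20 weeks (left) and at 8 weeks (right). All 12 intervals include 0, and that of Vipr1 at 20 weeks ends at 0.015.

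Whether the genotype difference itself changed between the settings was tested as an interaction, the difference at 20 weeks minus that at 8 weeks. The point values of Gipr (-0.48 ± 0.34), Vipr1 (-0.45 ± 0.32), Glp1r (-0.41 ± 0.37) and Vipr2 (-0.29 ± 0.28) were below 0. For Gcgr (0.033 ± 0.34) and Dpp4 (-0.074 ± 0.32) they were close to 0, and the sign of Dpp4 turned (0.071) when scaled by the reads in listed genes. None passed (limma adjusted p = 1 for each), and over all genes 0.0599% were called higher and 0.00749% lower. Averaged over the 2 settings, KO over WT lay between -0.24 ± 0.16 for Vipr1 and 0.13 ± 0.16 for Dpp4, and 0 of 6 members passed, against 0.015% of genes called higher and 0.0899% lower.

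Adcyap1r1, the receptor selective for PACAP, was measured on few reads. At 20 weeks it had 13 and 42 reads in KO-labelled islets, against 59 and 23 reads in WT islets, or 0.221 and 0.605 RPM against 0.349 and 0.340 RPM. At 8 weeks it had 55 and 129 reads in KO-labelled islets, against 176 and 149 reads in WT islets, or 0.288 and 0.787 RPM against 1.57 and 0.961 RPM. Both KO-labelled libraries at 8 weeks thus lay below both WT libraries. Such a separation was seen in 5.72% of the 13347 genes tested, and its share among genes as low as Adcyap1r1 was not counted. In a limma fit without a filter, its log2 fold change at 8 weeks was -0.57 ± 0.21 (unadjusted p = 0.0294, adjusted p = 1). By edgeR on recovered reads with a minimum of 0.1 RPM, chosen after the data were seen, it was -1.33 at 8 weeks (adjusted p = 0.60) and 0.29 at 20 weeks (adjusted p = 0.89).

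PACAP (Adcyap1), the ligand of this receptor, and VIP (Vip) are neuropeptides that islets receive from nerve endings. Adcyap1, named after its values were seen, had 0 reads in all 4 libraries at 20 weeks, where 3 reads would be 0.0177 to 0.0511 RPM. At 8 weeks it had 4 and 6 reads in KO-labelled islets, against 30 and 28 reads in WT islets. Vip was at 1.24 and 3.72 RPM in KO-labelled islets at 8 weeks, against 7.44 and 8.05 RPM in WT islets. Its groups did not overlap, and 5.72% of all genes tested separated downwards in that comparison. Its log2 fold change of -1.43 ± 0.30 did not pass (limma adjusted p = 0.067), though it passed by limma in the fit of the 8-week libraries alone (adjusted p = 2.6e-05) and with a minimum of 5 RPM (adjusted p = 0.0040). With that minimum, Vip was kept only through the WT libraries at 8 weeks, where it was high, so the latter pass is no independent support. It also passed by limma without any 1 of 7 libraries (adjusted p = 0.00011 to 0.020), but not without KO replicate 1 at 8 weeks (-0.89, adjusted p = 0.51) or under median-of-ratios scaling (-1.46, adjusted p = 0.40). By edgeR it did not pass (-1.73, adjusted p = 0.77). At 20 weeks Vip was at 0.0681 and 1.05 RPM in KO-labelled islets, against 0.420 and 0.163 RPM in WT islets, and the interaction of 1.63 ± 0.43 did not pass (limma adjusted p = 0.26).

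Markers of nerve and glia moved with these 3 genes. Of 8 neural marker genes 5 were tested, and 4 of them were called lower in KO-labelled islets at 8 weeks (Sncg, Nos1, Prph and Nefl). The list median was -1.24, and limma called 0.195% of all genes lower in that comparison. Nefl reached 1 RPM only in the WT libraries at 8 weeks. Sncg and Prph reached it there and otherwise only in KO replicate 2 at 8 weeks (1.37 and 1.77 RPM). Since the filter asked for 2 libraries, Nefl, Sncg and Prph were tested only through the group where they were high. Their calls are no independent support. Nos1 also reached 1 RPM in both KO-labelled libraries at 20 weeks, so its test did not hang on that group. The 8 marker genes summed to 4.76 and 10.7 RPM in KO-labelled islets at 8 weeks, against 24.9 and 15.8 RPM in WT islets. At 20 weeks they summed to 5.89 and 7.30 RPM in KO-labelled islets, against 6.27 and 6.18 RPM in WT islets, and 0 were called. None was at 0 in every library, and S100b and Sox10 were under 1 RPM in every library. Leukocyte markers also differed at 8 weeks, with 10 genes summing to 20.6 and 20.5 RPM in KO-labelled islets against 49.0 and 56.8 RPM in WT islets. The part of these markers in the values of Adcyap1r1, Adcyap1 and Vip was not tested. In RNA of whole islets, fewer cells of a type and less RNA per cell cannot be told apart.

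**Figure D4:**
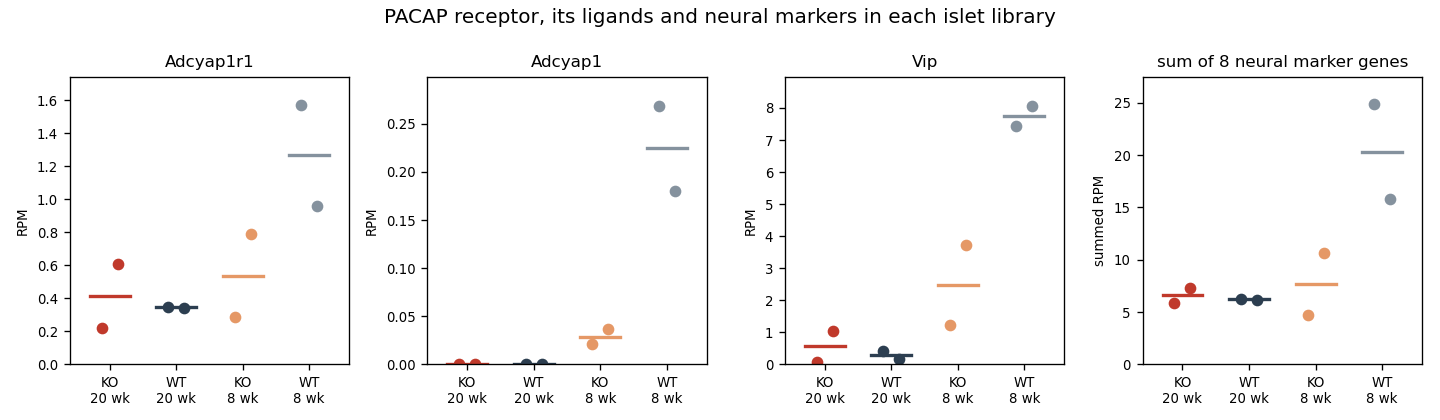
RPM of Adcyap1r1, Adcyap1 and Vip, and the summed RPM of 8 neural marker genes, in every library (points) with the mean of 2 libraries (line), by group. In all 4 panels both WT points at 8 weeks are the highest, with neural sums of 24.9 and 15.8 RPM.

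The second question was how the genes differed between the older mice on high fat and the younger mice on low fat, averaged over genotypes. In RPM, 1 of 6 members was called: Vipr2 was higher at 20 weeks, while limma called 31.2% of all genes higher and 6.05% lower. Its 4 libraries at 20 weeks ranged from 3.40 to 4.62 RPM, and its 4 libraries at 8 weeks from 1.98 to 2.95 RPM, without overlap. Such a separation upwards was seen in 30.4% of all genes, so that 1 of 6 is below the background. The separation downwards was seen in 0 of the 6 tested members and in 8.19% of all genes. The log2 fold change of Vipr2 was 0.47 ± 0.14 (limma adjusted p = 0.014), and it lost its call without WT replicate 1 at 8 weeks (0.41, adjusted p = 0.10) or without WT replicate 1 at 20 weeks (0.38, adjusted p = 0.093).

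The scale of the values bore on this comparison, since the share of reads in listed genes was higher at 20 weeks. The median log2 fold change over all genes was 0.17 in RPM, -0.024 after median-of-ratios scaling, -0.17 when scaled by the reads in listed genes and -0.036 by edgeR with TMM scaling. The split of called genes moved with it, from 4164 higher and 807 lower in RPM to 3903 and 3937 after median-of-ratios scaling and 2717 and 5418 when scaled by the reads in listed genes. Relative to the median of all genes, Vipr2 was higher by 0.30 in RPM and by 0.32 and 0.37 on the other 2 scales. Scaled by the median of ratios its ages overlapped, since 8-week KO replicate 1 (3.76) lay above 3 of the 4 libraries at 20 weeks. It kept its direction on each scale, but its call did not hold under median-of-ratios scaling (0.30, limma adjusted p = 0.068), when scaled by the reads in listed genes (0.20, limma adjusted p = 0.23) or by edgeR (0.37, adjusted p = 0.088).

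Vipr1, the other VIP receptor, had point values below 0 on every scale. It was at 25.1 to 43.7 RPM at 20 weeks and 36.2 to 45.3 RPM at 8 weeks, and its log2 fold change of -0.29 ± 0.16 failed the test in RPM (limma adjusted p = 0.17). It was called lower at 20 weeks under median-of-ratios scaling (-0.51, limma adjusted p = 0.0019), when scaled by the reads in listed genes (-0.67, limma adjusted p = 0.00093) and by edgeR (-0.53, adjusted p = 0.0018). Relative to the median of all genes it stood at -0.46 in RPM. Dpp4 was at 39.9 to 52.5 RPM at 20 weeks and 44.6 to 55.2 RPM at 8 weeks. Its log2 fold change was -0.014 ± 0.16 in RPM, and it was called lower on the same 3 scales (-0.24, -0.40 and -0.25, with adjusted p of 0.043 and 0.010 by limma and 0.033 by edgeR). Those 3 settings called 29.6%, 37.8% and 29.9% of all genes lower, so 2 of 6 members called lower is close to the background.

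Gipr, Glp1r and Gcgr were not called on any scale, and their direction depended on it. The log2 fold change of Gipr was 0.075 ± 0.17 in RPM, but -0.14 under median-of-ratios scaling and -0.31 when scaled by the reads in listed genes. That of Glp1r was 0.15 ± 0.19 in RPM, but -0.071 and -0.23 on those scales. That of Gcgr was 0.27 ± 0.17 in RPM, 0.059 under median-of-ratios scaling and -0.096 when scaled by the reads in listed genes. Relative to the median of all genes in RPM they stood at -0.095, -0.017 and 0.096, close to the typical gene. Without KO replicate 2 at 8 weeks, Gcgr passed in RPM (0.40, limma adjusted p = 0.035), and without KO replicate 1 at 8 weeks Vipr1 did (-0.36, limma adjusted p = 0.040). Adcyap1r1 was lower at 20 weeks by edgeR with a minimum of 0.1 RPM (-1.34, adjusted p = 0.018), a setting in which 26% of all genes were called lower, and -0.43 ± 0.15 in the limma fit without a filter (adjusted p = 0.074).

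**Figure D5:**
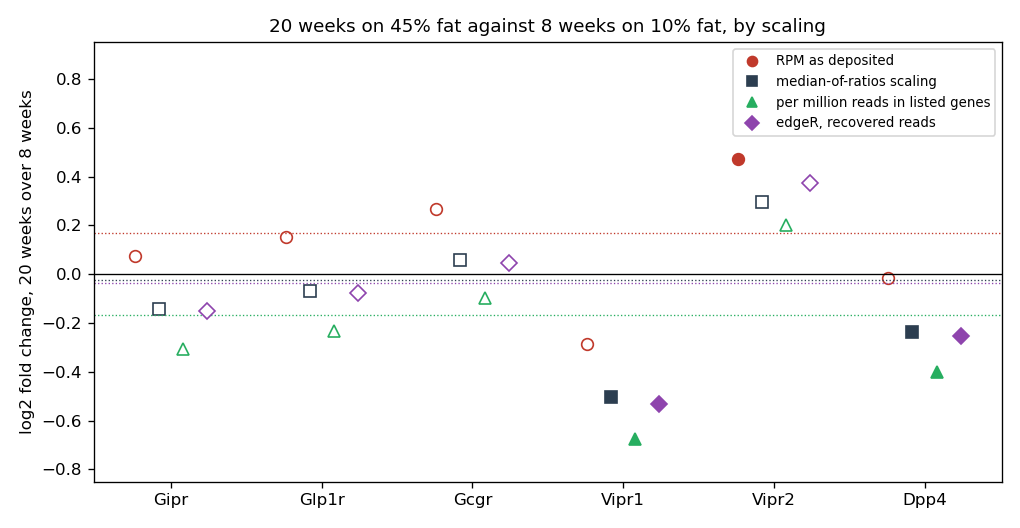
Log2 fold change at 20 weeks over 8 weeks, averaged over genotypes, of the 6 tested genes on 4 scales, with filled symbols for an adjusted p under 0.05 and dotted lines at the median of all genes on each scale. Vipr2 is called only in RPM, Vipr1 and Dpp4 only on the other 3 scales, and the points of Gipr and Glp1r lie above 0 in RPM and below 0 on the others.

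Across the 4 groups the order of the means differed from member to member. Gipr was highest in WT islets at 20 weeks (40.1 ± 10.1 RPM, SD, n = 2) and lowest in WT islets at 8 weeks (31.7 ± 4.02 RPM). Glp1r was highest in WT islets at 20 weeks (172 ± 13.2 RPM) and lowest in KO-labelled islets at 20 weeks (131 ± 15.5 RPM). No 2 neighbours in the order of Gipr, Glp1r, Gcgr or Dpp4 were free of overlap. For Vipr1 the lowest group, KO-labelled islets at 20 weeks (28.3 ± 4.52 RPM), did not overlap with the next, WT islets at 20 weeks (39.3 ± 6.21 RPM). For Vipr2 the KO-labelled islets at 20 weeks (3.73 ± 0.0426 RPM), at 8 weeks (2.78 ± 0.243 RPM) and WT islets at 8 weeks (2.26 ± 0.385 RPM) were each apart from the next in RPM, but neither gap held under median-of-ratios scaling. The highest library exceeded the lowest 1.39-fold for Dpp4, 1.64-fold for Gipr and Glp1r, 1.70-fold for Gcgr and 2.33-fold for Vipr2, with Vipr1 between the last pair.

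The genes around the receptors were read from lists of ligands, other class B receptors, receptor-regulating proteins, DPP-family and related peptidases and prohormone-processing enzymes. Of their 31 tested genes 0 were called in any of the 4 genotype contrasts, and 7 were called between ages, 3 higher and 4 lower, where limma called 31.2% of all genes higher and 6.05% lower. Both tested ligands fell at 20 weeks. Gcg, which encodes glucagon and, through other cleavage, GLP-1, was at 1671, 2271, 2859 and 1542 RPM at 20 weeks in the 2 KO-labelled and 2 WT libraries, and at 3735, 5312, 3363 and 3952 RPM at 8 weeks. Every 20-week library was below every 8-week library, with a log2 fold change of -0.99 ± 0.34 (limma adjusted p = 0.030), and 8.19% of all genes separated downwards in this way. The call of Gcg was lost in 6 of 19 alternatives, which were the fit without a filter (limma adjusted p = 0.36) and the omission of KO replicate 1, KO replicate 2 or WT replicate 2 at 20 weeks or of either WT library at 8 weeks (limma adjusted p = 0.060 to 0.15, log2 fold change -1.11 to -0.77). Vip fell as well, by 1.95 on the log2 scale (limma adjusted p = 1.1e-06). At 20 weeks Vip reached 1 RPM in only 1 library (1.05 RPM, KO-labelled). It thus passed the filter only through the age where it was high, and this call of Vip is no independent support. Gip, named after its values were seen, had 3 and 6 reads in 1 library each of KO-labelled and WT islets at 20 weeks, and 0 in the other 6.

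The fall of Gcg came with other alpha cell genes. Of 6 alpha cell markers, Gcg itself among them, 5 were called lower at 20 weeks, with a list median of -0.81 against 0.17 over all genes. Their sum was 1916 to 3386 RPM at 20 weeks and 3809 to 5814 RPM at 8 weeks. The fall was not particular to alpha cell genes. Of 6 markers of delta and PP cells, other hormone cells of the islet, 3 were called lower (Ghsr, Pyy and Ppy), with a list median of -0.46. Of 10 beta cell markers 1 was called lower, Mafa, with a list median of -0.14. Among all genes limma called 6.05% lower. What share of the change in Gcg goes with alpha cell number was not tested.

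Among the other class B receptors, 1 of 4 tested was called. Glp2r, the receptor for GLP-2, was at 0.664, 1.37, 0.846 and 1.01 RPM at 20 weeks in the 2 KO-labelled and 2 WT libraries, on 39 to 143 reads. At 8 weeks it had 1, 5, 6 and 2 reads in the same order of genotypes. The groups of ages were far apart, and the log2 fold change was 0.93 ± 0.14 (limma adjusted p = 4.3e-05), a value held down by the added 1 RPM. Glp2r reached 1 RPM in 1 library of each genotype, both at 20 weeks. It thus passed the filter only through the age where it was high, and its call is no independent support. Under median-of-ratios scaling it did not pass the filter. Crhr1, a receptor for corticotropin-releasing hormone named after its values were seen, was at 0.698 and 0.634 RPM in KO-labelled islets at 20 weeks, against 2.08 and 1.41 RPM in WT islets. Its log2 fold change of -0.71 ± 0.19 did not pass (limma adjusted p = 0.36), except in the fit of the 20-week libraries alone. Crhr1 reached 1 RPM only in the WT libraries at 20 weeks. It was thus tested only through the group where it was high, so that pass is no independent support.

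Of 11 proteins that regulate receptors 1 was called between ages, Cav1, which encodes the caveolar scaffold caveolin 1. It was lower at 20 weeks, at 2.26 to 4.02 RPM against 4.05 to 11.5 RPM at 8 weeks (log2 fold change -0.83 ± 0.24, limma adjusted p = 0.012). That call was lost in the fit without a filter (limma adjusted p = 0.13) and without KO replicate 1 at 20 weeks (-0.67, limma adjusted p = 0.055). Of 8 tested peptidase genes 3 were called. Dpp3, a cytosolic peptidase, was lower (-0.45 ± 0.15, limma adjusted p = 0.025). Its call was lost without KO replicate 1 (-0.40), WT replicate 1 (-0.50) or WT replicate 2 (-0.41) at 20 weeks, or without WT replicate 2 at 8 weeks (-0.37), with limma adjusted p of 0.054 to 0.19. Dpp6 and Dpp10, relatives of Dpp4 without peptidase activity that accompany potassium channels, were higher (1.19 ± 0.28 and 0.70 ± 0.24, limma adjusted p = 0.0025 and 0.031). Dpp6 was at 133, 95.5, 135 and 70.4 RPM at 20 weeks in the 2 KO-labelled and 2 WT libraries, and at 23.4, 71.7, 42.4 and 59.2 RPM at 8 weeks, with an overlap of 1 library on each side, and its call was lost in the fit without a filter (limma adjusted p = 0.064). The call of Dpp10 was lost in 9 of 19 alternatives (adjusted p up to 0.27), median-of-ratios scaling (0.48, limma adjusted p = 0.071), edgeR (0.46, adjusted p = 0.088) and the omission of KO replicate 1, KO replicate 2 or WT replicate 1 at 20 weeks or of KO replicate 1 at 8 weeks (0.37 to 0.72, limma) among them. Of the 6 enzymes and chaperones of prohormone processing 0 were called, and the most abundant, Pcsk2 and Cpe, had log2 fold changes of 0.092 ± 0.31 and 0.20 ± 0.24.

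For each tested member the genes with the most similar profile were found among 9388 genes with a mean of at least 5 RPM, by the root-mean-square distance between log2(RPM + 1) profiles centred on their own means over 8 libraries. The nearest were Pex16, a peroxisome assembly gene, and Pdcd6 to Dpp4 (0.0338 and 0.0502), and Spnb4, a spectrin gene, and Cc2d1a to Glp1r (0.0441 and 0.0470). To Vipr1 they were Fam83g and Zfp574 (0.0467 and 0.0634), and to Gipr Rhob and the kinase gene Pim3 (0.0680 and 0.0778). To Gcgr they were Ttc7 and Grk5, a kinase that phosphorylates G protein-coupled receptors (0.0708 and 0.0836), and to Vipr2 Dak and Naip2 (0.0823 and 0.0967). Among the members themselves, Gipr was closest to Glp1r and to Dpp4 (0.161 each), and Vipr1 and Vipr2 were farthest apart (0.443). These distances describe 8 libraries whose scaling is shared by all genes.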

How the data were processed

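Libraries were made from RNA depleted of ribosomal RNA (RiboZero) with Illumina TruSeq reagents, per the labels' protocols. Per the submitters' processing notes, CASAVA 1.8, FastQC and TopHat 1.4.1 were used on mm9. The step from reads to genes, its annotation and its strand setting were not given in the sources used here. Values deposited by the authors are RPM, whose denominator exceeds the reads in listed genes. All values (100%) were whole multiples of 1 read to within 0.01 read, so reads were recovered, each worth 0.00523 to 0.0170 RPM. The main test was limma 3.58.1 in R 4.3.3 on log2(RPM + 1); the added 1 shrinks the fold changes of low genes. It fitted 4 group means with a mean-variance trend (4 residual and 14 prior degrees of freedom). Results were also computed with edgeR 4.0.16 (quasi-likelihood, TMM) and DESeq2 1.42.0 on recovered reads. Between ages these called 7830 and 7941 genes, against 4971 by limma. Replicate libraries were compared by a chi-square test, whose statistic was 42.9 to 339 times its degrees of freedom, so none were merged. Because the labels do not tie libraries to animals, p-values measure only the spread between libraries.

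The members and lists were chosen with earlier results of these data known. Genes were named by a rule: the 7 members, each list's called genes or otherwise its 2 most abundant, the 2 nearest profiles of each tested member, and Tcf7. GENCODE M21 on GRCm38, a later build than mm9, gave exon lengths and overlaps for 20750 of 22632 identifiers (91.7%). Promoters are from RefSeq (GRCm38.p6). Tested on simulated counts (13020 genes, KO against WT at 8 weeks), limma found 71 of 100 changes of 2-fold and 100 of 100 of 4-fold, with 8 false calls. The simulation gave all genes the same spread, with no age difference and no shift in scale or tissue content between replicates. These rates therefore need not hold for the real libraries. Python 3.11.15, pandas 2.3.3 and matplotlib 3.10.9 drew the figures and joined the annotation. Some marker genes are not reported here by name.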

Additional observations from a re-analysis of the deposited data

How the results depend on the processing

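Of 745 alternative values of gene fold changes under 20 alternatives, 644 kept direction and side of the threshold, 29 lost a call, 27 gained one and 45 changed sign. No member was called between genotypes under any alternative. Every member's sign change between genotypes was of a value that had not passed.

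The age comparison depended on scaling. Members called numbered 1 in RPM, 2 under median-of-ratios scaling, 3 when scaled by the reads in listed genes (Adcyap1r1 then passed the filter), 2 by edgeR, 2 by DESeq2, 3 by edgeR with a minimum of 0.1 RPM and 0 with a minimum of 5 RPM, which removed Vipr2. Pathway genes called numbered 7 in RPM, and 13, 18, 14, 16 and 18 under the first 5 of these alternatives. Calls over all genes rose as well, from 4164 higher and 807 lower of 13347 in RPM. They were 3903 and 3937 of 13291, then 2717 and 5418 of 14315, under the 2 scalings. By edgeR they were 3842 and 3988 of 13347, and by DESeq2 4151 and 3790 of 13347. By edgeR with a minimum of 0.1 RPM they were 4554 and 4279 of 16489. The signs of Gipr turned to -0.14, -0.31, -0.15, -0.12 and -0.16 under those 5 alternatives, and those of Glp1r to -0.071, -0.23, -0.079, -0.050 and -0.090. Gcgr turned to -0.096 when scaled by the reads in listed genes. With the acinar marker mean as a covariate, Dpp4 turned to 0.049 between ages and to -0.039 between genotypes at 20 weeks, and Vipr1 to 0.28 at 8 weeks. Vipr1 at 8 weeks also turned to 0.0027 under median-of-ratios scaling and to 2.0e-05 by edgeR with a minimum of 0.1 RPM. Scaled by the reads in listed genes, Glp1r at 8 weeks turned to -0.046 and the interaction of Dpp4 to 0.071, where the median of all genes for the interaction moved by over 0.1 to 0.12.

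Between genotypes, 1 pathway gene was called in place of 0 at 8 weeks with a minimum of 5 RPM, in the fit of the compared libraries alone and at a threshold of 0.10 (Vip each time). The same held for the interaction with a minimum of 5 RPM (1, Vip), for 20 weeks in the fit of the compared libraries alone (1, Crhr1), and for 20 weeks and the average by DESeq2 (1, Dpp9). With a minimum of 5 RPM, Vip was kept only through the WT libraries at 8 weeks. Crhr1 passed its filter only through the WT libraries at 20 weeks. In both cases that was the group where the gene was high, so those calls are no independent support. Over all genes, DESeq2 called 142, 139, 170 and 92 genes at 8 weeks, at 20 weeks, on average and for the interaction, against 28, 6, 14 and 9 by limma and 24, 0, 2 and 3 by edgeR.

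With any 1 library left out there were 0 to 1 pathway genes at 8 weeks, on average and for the interaction, 0 at 20 weeks, 3 to 12 between ages, and 0 to 2 members between ages. At 8 weeks Glp1r ranged from -0.28 to 0.31, Gcgr from -0.42 to 0.18 and Vipr1 from -0.17 to 0.15. At 20 weeks Gipr ranged from -0.45 to 0.055, Gcgr from -0.19 to 0.012, Vipr2 from -0.25 to 0.10 and Dpp4 from -0.099 to 0.29. On average over settings Gipr ranged from -0.084 to 0.17, Gcgr from -0.25 to 0.044 and Vipr2 from -0.015 to 0.16. For the interaction Gcgr ranged from -0.26 to 0.33 and Dpp4 from -0.27 to 0.12, and between ages Gipr ranged from -0.051 to 0.20 and Dpp4 from -0.11 to 0.083. Where a group was left with 1 library, that library was assumed to vary like the other groups. Calls over all genes were not counted in those fits. No paired analysis was possible because the labels give no replicate numbers. The causes of these changes were not tested, apart from those given above, and with 2 libraries a group, differences within the intervals above were not detectable.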

Other observations

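Of the genes of the class B receptor system too low for the filter, 3 that stood higher at 20 weeks were chosen here after their values were seen. Ghrh, which encodes growth hormone-releasing hormone, had 53 and 28 reads in KO-labelled islets and 45 and 8 reads in WT islets at 20 weeks, but 0 and 0 reads in KO-labelled islets and 0 and 2 reads in WT islets at 8 weeks. In the limma fit without a filter its log2 fold change at 20 weeks over 8 weeks was 0.47 ± 0.09 (adjusted p = 0.014). Pth1r, a parathyroid hormone receptor gene, was at 0.340 to 0.800 RPM at 20 weeks and at 0.0680 to 0.152 RPM at 8 weeks (0.48 ± 0.05, limma adjusted p = 0.00073). Calcr, the calcitonin receptor gene, was at 0.119 to 0.361 RPM at 20 weeks and at 0 to 0.0268 RPM at 8 weeks (0.34 ± 0.06, limma adjusted p = 0.0082). In each of the 3 genes all 4 libraries at 20 weeks lay above all 4 at 8 weeks, as did 30.4% of the genes that passed the filter. The share of the 19770 genes called in the fit without a filter was not counted. In that fit Adcyap1 was called the other way (-0.17 ± 0.02, limma adjusted p = 0.0047). Adcyap1r1, Gip, Sct, Sctr, Ghrhr and Pth2r were not called there between ages. Between genotypes none of the 3 chosen genes passed in that fit, and Pth1r and Ghrh came nearest at 20 weeks, at 0.28 ± 0.07 and 0.46 ± 0.13 (limma adjusted p = 0.49 and 0.57).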
